A study of Mus musculus with 1920 samples.

Results

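Myelin-forming oligodendrocytes are defined by a small set of abundant transcripts, and reads of 7 of them were present in sorted single microglia: Mbp, Mobp, Mal, Cldn11, Cnp, Mag and Mog. The 7 genes were chosen by name as genes of central myelin, with earlier results of these data known. Each matched 1 of the 48709 gene entries of the deposited count table by its Ensembl mouse identifier. They are described over all 10 groups of cells, within single cells, and against wells that held no cell.

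The cells were microglia of CD1 mice aged 16 weeks, sorted 1 per well into 5 plates of 384 wells and sequenced by Smart-seq2, a full-length method without molecular identifiers. Tissue came from mice perfused with buffered saline, was separated on Percoll, and was stained before the sort with antibodies to CD206, Ly6G, Ly6C, CD45 and CD11b. Each of the 10 groups held 190 wells from 4 mice. The 6 untreated groups were spinal cord, corpus callosum, facial nucleus, cerebellum, hippocampus and cortex. The other 4 were the facial nucleus 3 and 14 days after the facial nerve was cut (axotomy day 3 and day 14), and the corpus callosum in cuprizone demyelination and in the remyelination that follows. Cuprizone is a copper chelator that, given in the feed, kills oligodendrocytes, and myelin is rebuilt once it is withdrawn. The labels gave neither the sort gates nor the length of cuprizone feeding, and the injured groups had no sham or vehicle-fed group beside the untreated tissue. The series text speaks of 3 or 4 mice per condition and of regions taken from the same mice, while the labels number 4 replicates in every group and do not say which numbers are the same animal. The axotomy wells carry facial nerve as their tissue label and facial nucleus as their source.

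Myelin is the stack of membrane that oligodendrocytes wrap around axons. Its cytoplasmic surfaces are held together by small basic proteins, of which myelin basic protein is the one without which central myelin does not compact, and the Mbp and Mobp transcripts are carried out along the oligodendrocyte's processes and translated where the sheath is made. Microglia are the macrophages that live in brain and spinal cord, and they engulf myelin debris after injury and trim myelin during development.

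The genes lie on separate chromosomes of the GRCm38 build. Mobp was at chr9:120149742-120181484 on the forward strand, Mal at chr2:127633226-127656695 on the reverse strand, Cldn11 at chr3:31149920-31164324 on the forward strand, Cnp at chr11:100574904-100591729 on the forward strand, Mag at chr7:30899176-30914873 on the reverse strand, Mog at chr17:37010743-37023398 on the reverse strand, and Mbp on chromosome 18. Exons of Cnp overlap those of Dnajc7 on the other strand and exons of Mobp overlap those of the predicted gene Gm38642 on the same strand. Whether reads were counted by strand is not given in the sources used here, so the Cnp and Mobp values can hold reads of those neighbours. The Mbp locus also makes longer transcripts, called golli, that blood-lineage cells are known to use, and the deposited gene counts do not separate them from the myelin forms.

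Of the 1900 wells labelled as cells, 1644 passed a filter on depth, genes detected, mitochondrial share and spike-in share. No doublet caller was used because cells were sorted 1 per well. Whether any well held more than 1 cell was not tested. Microglia markers were read throughout the kept cells: 96.1% had reads of at least 10 of 12 such markers, and none had fewer than 7. A marker was taken as read at 1 read or more, whatever its level. The counts of the kept cells of a mouse in 1 group were added up, which gave 40 sums of 5298853 to 19964472 gene counts. Levels are given as CPM, the counts of a gene scaled to a sum of 1000000 gene counts. The median kept cell had 150471 to 471755 gene counts depending on the group, with the most in demyelination and the fewest in axotomy day 14, and 67.9% of the remyelination wells were kept against 81.1% to 95.3% elsewhere. In the sums, fewer cells with a transcript and less transcript per cell cannot be told apart, so shares of cells are given beside the levels.

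The 20 wells labelled as negative gave no read of any of the 7 genes. They held 17779 gene counts in all, and 0 of 20 wells allows a share of up to 15%. A count of 0 in that total allows up to 169 CPM of a gene (3 counts; counting error only), and at the rate of the kept cells these wells would have held 2.37 counts of Mbp and 1.19 of Cnp. The absence of reads there is therefore of little weight at this depth. In 16 of the 20 wells there were reads of P2ry12, a microglial purine receptor, 100 in all.

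Mbp was read in 293 of the 1644 kept cells, Cnp in 369, Mag in 217, Mobp in 98, Mog in 33, Mal in 26 and Cldn11 in 15. No member was read in 851 cells, exactly 1 member in 598, 2 members in 148, and 3 or more in the remaining cells, of which 1 cell had all 7. The commonest result in a microglia was thus no read of any of them, and most cells that had any had reads of a single gene.

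Mbp, the compaction protein of the sheath, had the widest range of group means in CPM. In the spinal cord, Mbp stood at 688, 1269, 481 and 374 CPM in mice 1 to 4. In the corpus callosum, a white matter tract, it stood at 115, 43.6, 71.3 and 51.7 CPM. In the cortex it stood at 10.4, 1.03, 22.3 and 28.5 CPM. The lowest spinal cord mouse lay above every mouse of the other 5 untreated regions, and the corpus callosum and cortex mice did not overlap.

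Hippocampus mice had 26.3, 31.8, 39.3 and 88.3 CPM of Mbp. Facial nucleus mice had 26.2, 22.9, 1.14 and 93.2 CPM, and cerebellum mice 9.47, 4.74, 3.65 and 46.1 CPM. These 3 regions overlapped one another and the cortex. By the mean of 4 mice (± SD), Mbp was 703 ± 399 CPM in spinal cord, 70.5 ± 32.1 in corpus callosum, 46.4 ± 28.4 in hippocampus, 35.9 ± 39.8 in facial nucleus, 16.0 ± 20.2 in cerebellum and 15.6 ± 12.2 in cortex, and neighbours in this order overlapped except spinal cord and corpus callosum.

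**Figure D1:**
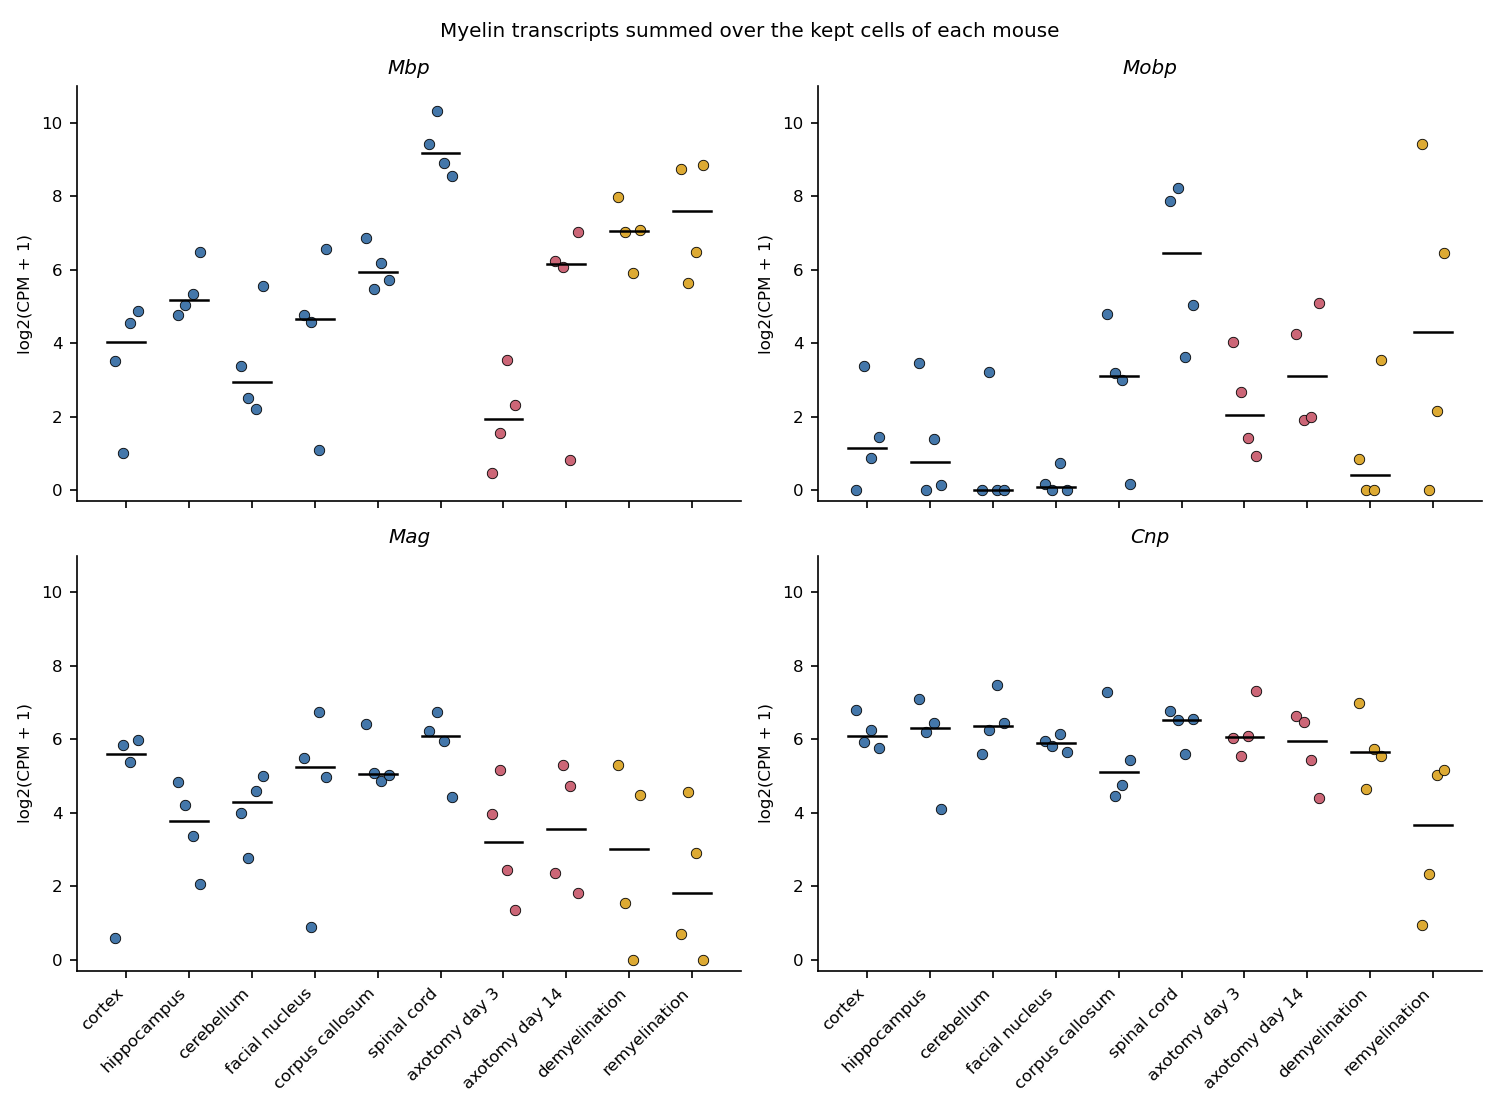
Summed level of Mbp, Mobp, Mag and Cnp in each mouse, as log2(CPM + 1) on the vertical axis, for the 10 groups on the horizontal axis; each point is 1 mouse, the line is the median of 4 mice, and untreated, axotomy and cuprizone groups have separate colours. The 4 spinal cord points of Mbp, 374 to 1269 CPM, lie above all points of the other untreated regions, while Cnp and Mag points of most regions overlap.

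Across the 6 untreated regions, 1 of the 7 members passed edgeR's quasi-likelihood test with Benjamini-Hochberg adjustment over all 22907 genes tested, namely Mbp (adjusted p = 0.00388), and 0.1% of all genes tested were called. DESeq2 called 2 members, Mbp and Mobp, and 1.16% of all genes. At an unadjusted p under 0.05 stood 3 of the 7 members and 2368 of all genes. The Mbp call was lost without mouse 1 or without mouse 2 of each region (adjusted p up to 0.612 over the 4 fits that leave out a replicate number), and without the 1 cell with most Mbp reads in each mouse.

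Between spinal cord and cortex, Mbp rose by 5.34 ± 1.04 on the log2 scale (SE, adjusted p = 0.0437, edgeR's quasi-likelihood test, higher in 4 of 4 mice than in any cortex mouse). That made 1 of 7 members called, where 0.0698% of all genes were called, while DESeq2 called 2 (Mbp and Cldn11) and 4% of all genes. Leaving out any cortex mouse, or spinal cord mouse 1, 3 or 4, ended the call, and it was kept only without spinal cord mouse 2 (adjusted p = 0.0386). Over these 8 fits the adjusted p reached 0.419, with log2 differences of 4.90 to 5.79. Without the most Mbp-rich cell of each mouse the difference was 4.18 ± 1.27 (adjusted p = 0.399), and cortex and spinal cord cells were on different plates, so that plate and region cannot be told apart there.

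Spinal cord and corpus callosum cells shared a plate. Mbp was 3.25 ± 0.94 higher in spinal cord on the log2 scale, with no overlap between the 2 sets of 4 mice, and did not pass (adjusted p = 0.735, edgeR's quasi-likelihood test). None of the 7 members was called, and 0% of all genes were called. The unadjusted p was under 0.05 for 3 of the 7 and for 1504 of all 22907 genes. DESeq2 called 1 member, Mbp, and 1.51% of all genes. Leaving out the top Mbp cell of each mouse moved the difference to 1.91 ± 1.15.

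Between corpus callosum and cortex, Mbp was 2.09 ± 0.90 higher on the log2 scale and did not pass (adjusted p = 0.402, edgeR's quasi-likelihood test). No member was called where 0.0131% of all genes were. The unadjusted p was under 0.05 for 2 of the 7 and for 2507 of all 22907 genes. DESeq2 called 1 member, Cldn11, beside 3.98% of all genes. The tight-junction gene Cldn11 had no read in any of the 4 cortex sums, and in the corpus callosum 65 of its 68 reads came from 1 cell.

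The share of cells with an Mbp read ordered the regions otherwise than the level did. Over the 4 mice it was 26.4% ± 3.78 in spinal cord, 26.7% ± 4.88 in corpus callosum, 15.5% ± 7.27 in hippocampus, 12.9% ± 5.72 in facial nucleus, 10.5% ± 4.97 in cortex and 9.41% ± 4.49 in cerebellum (SD, n = 4). With every cell thinned to 20000 gene counts it was 12.9% ± 4.18 in spinal cord and 15.6% ± 2.06 in corpus callosum, and 4.98% to 8.77% in the other 4. So spinal cord and corpus callosum had about the same share of cells with Mbp, while the mean levels were 703 and 70.5 CPM.

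**Figure D2:**
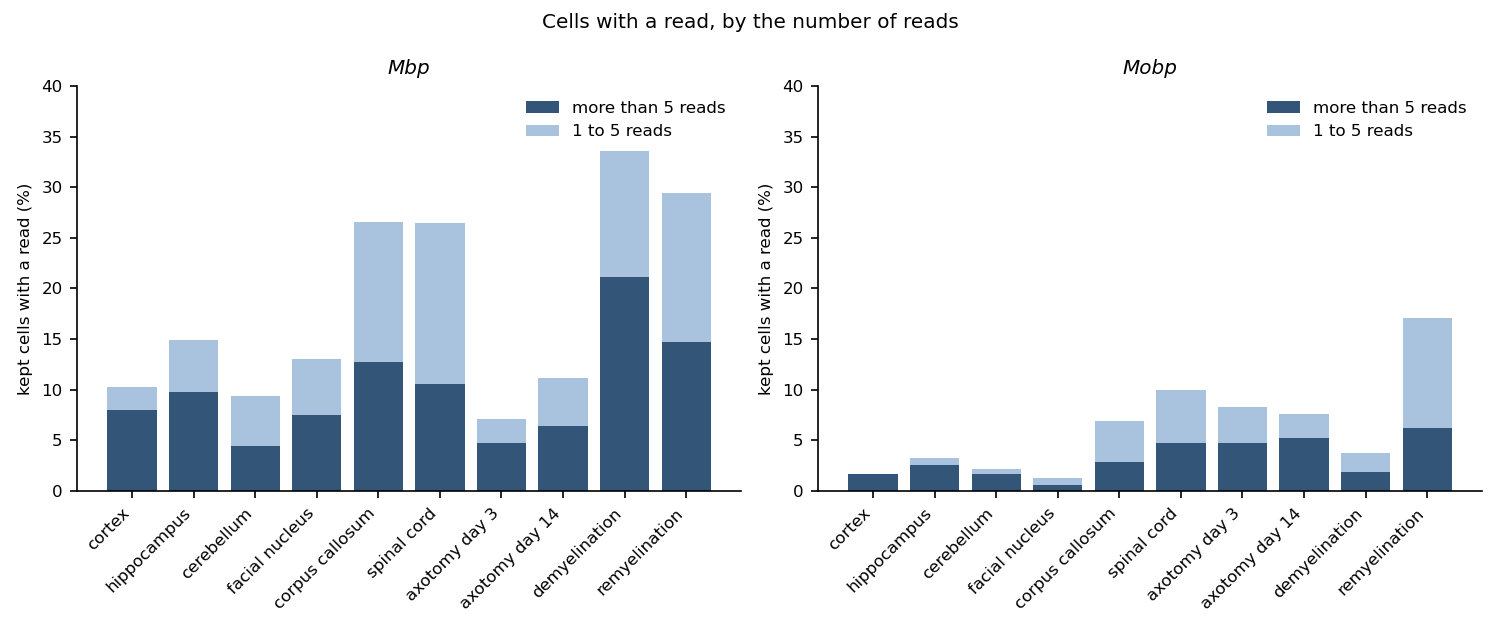
Share of kept cells with a read of Mbp (left) and Mobp (right) in percent, on the vertical axis, for the 10 groups on the horizontal axis, over all cells of a group; dark bars are cells with more than 5 reads and light bars cells with 1 to 5 reads. Cells with more than 5 Mbp reads made up 10.6% in spinal cord, 12.7% in corpus callosum and 21.1% in demyelination.

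The difference between level and share lay in a few cells. The 3 spinal cord cells with most Mbp reads held the majority of that group's Mbp counts, and the 5 richest held 91.5% of them. In the corpus callosum the 5 richest cells held 49.0%, in demyelination 48.3% and in remyelination 80.5%. The median spinal cord cell with an Mbp read had 2 reads of it, and the median corpus callosum cell 5. Without the richest Mbp cell of each mouse, the spinal cord sums fell to 63.9, 508, 27.7 and 51.4 CPM and the corpus callosum sums to 51.5, 21.9, 55.6 and 36.6 CPM, and the 2 regions then overlapped.

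**Figure D3:**
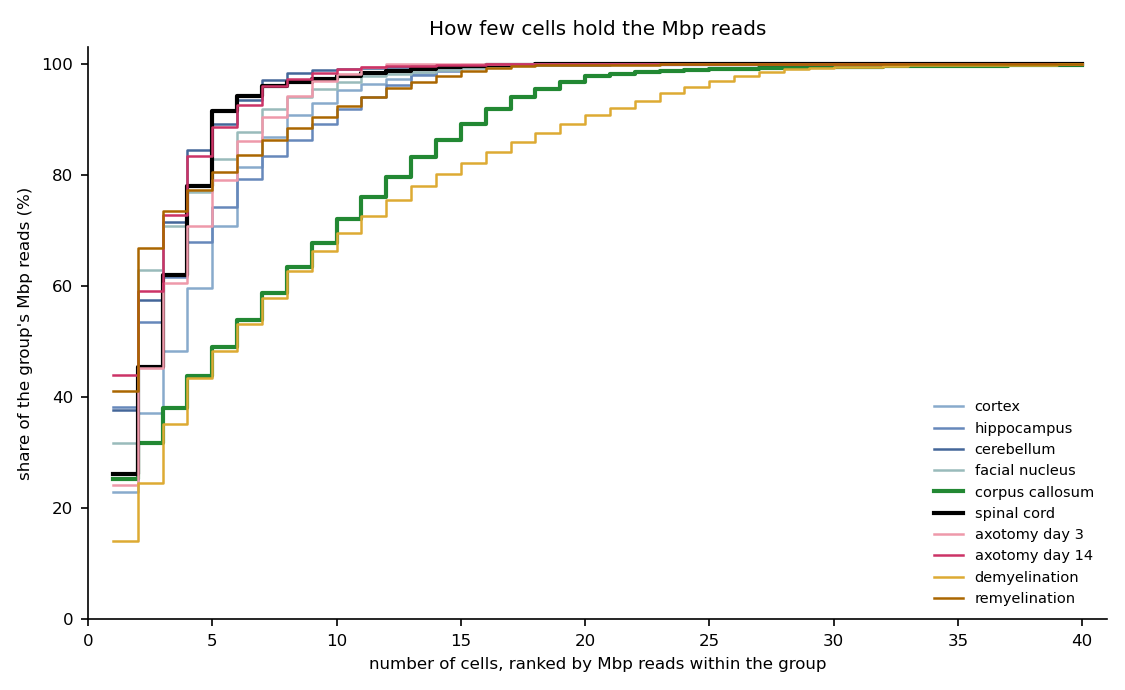
Cumulative share of a group's Mbp reads in percent (vertical axis) against the number of its cells, ranked from the most Mbp reads down (horizontal axis), with 1 line per group. The spinal cord line is at 91.5% after 5 cells and the corpus callosum line at 49.0%.

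Mobp encodes another small basic protein of compact myelin. Its level was 234, 299, 11.4 and 31.7 CPM in the spinal cord mice and 26.8, 8.21, 6.99 and 0.118 CPM in the corpus callosum mice. Cortex mice had 0, 9.46, 0.824 and 1.75 CPM, and hippocampus mice 9.97, 0, 1.65 and 0.107 CPM. Spinal cord mice 1 and 2 were the high ones, and the lowest spinal cord mouse overlapped the corpus callosum. The facial nucleus had 0.116, 0, 0.681 and 0 CPM and the cerebellum 0, 8.25, 0 and 0 CPM. Mobp did not pass across the 6 regions (adjusted p = 0.104) or between spinal cord and corpus callosum (3.68 ± 1.75 on the log2 scale, adjusted p = 0.747) by edgeR's quasi-likelihood test. It was read in 10.0% of cells in spinal cord, 6.94% in corpus callosum and 1.24% to 3.25% of the cells of the other 4 regions.

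Mal, a raft proteolipid of myelin and other sorting membranes, and Cldn11, the claudin that seals the lamellae, were read in 26 and 15 of the 1644 cells. Mal was at 0 in all 4 cerebellum sums and reached 74.4 CPM in demyelination mouse 1, from a single cell. Cldn11 was at 0 in all 4 cortex sums and reached 24.9 CPM in the same demyelination mouse, also from a single cell. No group had more than 7 cells with a Mal read or 4 with a Cldn11 read, so their sums describe those cells.

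Cnp encodes a cyclic nucleotide phosphodiesterase that keeps the cytoplasmic channels of myelin open. It was the most widely read member, in 18.7% to 25.9% of the cells of 9 groups and in 14% of remyelination cells. The 4 spinal cord mice had 109, 90.4, 47.9 and 92.3 CPM, and the 4 cortex mice 111, 59.6, 75.8 and 52.9 CPM. Corpus callosum mice had 155, 21, 26.3 and 42.6 CPM, and cerebellum mice 47.2, 75.6, 178 and 86.9 CPM. The regions overlapped throughout, so Cnp did not follow the order of Mbp. Per kilobase of exon, the mean Cnp level of 20.6 CPM per kb in cortex was above the 1.85 CPM per kb of Mbp there, while in spinal cord Mbp stood at 83.7 and Cnp at 23.3 CPM per kb.

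Mag and Mog encode adhesion proteins of the immunoglobulin family, at the inner, axon-facing edge and on the outer surface of the sheath. Mag was read in 22.4% of spinal cord cells, 18% of facial nucleus cells, 16.8% of corpus callosum cells and 10.5% to 13.6% of cells of the other untreated regions. Its 4 spinal cord mice had 73.9, 107, 61.5 and 20.7 CPM, its corpus callosum mice 85.1, 32.8, 28.2 and 31.7 CPM, and its cortex mice 0.520, 56.5, 40.6 and 61.8 CPM. All 3 regions overlapped. Hippocampus mice (3.20 to 27.9 CPM) overlapped spinal cord and cortex but lay just below the corpus callosum, and cerebellum mice (5.77 to 31.0 CPM) overlapped all 3. Mog was read in 1.66% to 3.73% of cells of the untreated regions, with means of 0.373 to 5.03 CPM, and neither gene passed the edgeR test in any comparison.

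After facial nerve section, Mbp stood at 0.396, 1.93, 10.7 and 3.96 CPM on day 3 and at 74.4, 66.5, 0.772 and 129 CPM on day 14. Day 14 mouse 3 lay as low as the day 3 mice, and the uninjured facial nucleus overlapped both. The log2 difference from the uninjured nucleus was -2.92 ± 1.25 on day 3 (adjusted p = 0.502) and 0.91 ± 1.17 on day 14 (adjusted p = 1.00), and 3.83 ± 1.30 between the days (adjusted p = 0.541; edgeR's quasi-likelihood test). Without the richest Mbp cell of each mouse the day 14 difference from the uninjured nucleus turned to -0.18.

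Mobp stood at 15.2, 5.43, 1.66 and 0.905 CPM on day 3 and at 18.1, 2.78, 2.96 and 33.4 CPM on day 14. Every injured mouse lay above every uninjured facial nucleus mouse, where 2 of the 4 had no Mobp read. The log2 difference was 5.01 ± 1.89 on day 3 (adjusted p = 0.454) and 6.10 ± 1.99 on day 14 (adjusted p = 0.629), so that edgeR's quasi-likelihood test called neither, while DESeq2 called Mobp on both days, beside 2.54% of all genes on day 3 and 1.99% on day 14. The uninjured sums held 7 Mobp reads in all, and 14 of 168 day 3 cells, 13 of 171 day 14 cells and 2 of 161 uninjured cells had a Mobp read.

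No member was called after axotomy, where 0.145% of 19319 genes were called on day 3, 0% on day 14 and 0.0259% between the days (1.67% by DESeq2, with no member). Cldn11 was too low to be tested. At an unadjusted p under 0.05 stood 2, 1 and 1 of the 6 members tested and 1610, 1090 and 1275 of all genes, respectively. Injured cells were on another plate than the uninjured nucleus, so plate and injury cannot be told apart in the first pair of comparisons. Markers of neurons, another cell type that the preparation could carry, summed to 50.5 to 909.8 CPM over the day 3 mice (median 76.2). The uninjured nucleus had 10.8 to 89.6 CPM (median 48.8). Of 9 neuron markers tested on day 3 edgeR called 0 and DESeq2 1. Astrocyte markers summed to 107 to 211 CPM on day 3 against 146 to 196 uninjured. Endothelial markers summed to 37.5 to 90.8 against 44.0 to 169 CPM. The part of these cell types in the result was not tested.

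Over all 10 groups the means of remyelination (258 ± 220 CPM, SD, n = 4) and demyelination (144 ± 79.9) lay between those of spinal cord and corpus callosum, that of axotomy day 14 (67.6 ± 52.4) just below corpus callosum and that of axotomy day 3 (4.25 ± 4.55) lowest, and each neighbouring pair in that order overlapped. In cuprizone demyelination, Mbp stood at 252, 129, 59.0 and 135 CPM, and in remyelination at 431, 48.5, 87.7 and 464 CPM. The untreated corpus callosum had 43.6 to 115 CPM, so 3 of the 4 demyelination mice and 2 of the 4 remyelination mice lay above it and the groups overlapped. Mbp rose in remyelination by 2.53 ± 0.67 on the log2 scale (adjusted p = 0.0499, edgeR's quasi-likelihood test), 1 of the 5 members tested, where 3.12% of 14057 genes were called (14.3% by DESeq2). In demyelination Mbp was 1.62 ± 0.65 higher and did not pass (adjusted p = 0.147), no member was called, and 5.16% of genes were (17.5% by DESeq2).

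That call in remyelination stood just inside the threshold. It was lost with upper-quartile scaling (2.39 ± 0.67, adjusted p = 0.0677), with the replicate number as a block (2.13 ± 0.56, adjusted p = 0.0715), with only the 2 groups (adjusted p = 0.0642) or all 10 groups (adjusted p = 0.129) in the fit, without any 1 corpus callosum mouse or without remyelination mouse 1 or 4 (adjusted p up to 0.135), and without the richest Mbp cell of each mouse (1.42 ± 0.68, adjusted p = 0.267). The median gene stood at -0.33 in demyelination and -0.31 in remyelination on the log2 scale. On unscaled CPM the log2 ratio of mean Mbp was 1.03 and 1.87. The cuprizone groups were on another plate than the untreated corpus callosum, so plate and treatment cannot be told apart. Their 12 microglia markers summed to 38059 to 51040 CPM in each mouse, below the 65112 to 71508 CPM of the untreated corpus callosum mice. The 12 did not all run one way. By edgeR's test 3 rose and 4 fell in demyelination, and 4 rose and 4 fell in remyelination. Of all genes, 5.16% and 3.12% were called. The median log2 difference over the 12 markers was 0.24 and 0.33. Markers of monocytes and border macrophages summed to 430 to 1616 CPM in demyelination, 31.1 to 219 CPM in remyelination and 15.8 to 56.6 CPM untreated. Of these 8 markers 4 were tested, and edgeR called only Fn1, in both groups. Its mean was 870 CPM in demyelination, 80.8 in remyelination and 6.05 untreated. DESeq2 called 3 of the markers in demyelination and 1 in remyelination. Ly6c2 and Lyve1 had no read in either group. The part of cell identity in the Mbp values was not tested.

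Between remyelination and demyelination, which shared a plate, Mbp was 0.90 ± 0.64 higher in remyelination and did not pass (adjusted p = 0.634, edgeR's quasi-likelihood test). Without the richest cell of each mouse that difference turned to -0.31. Mobp was 6.34 ± 2.34 higher and did not pass either (adjusted p = 0.29). No member was called, where edgeR called 0.0427% and DESeq2 4.24% of genes. At an unadjusted p under 0.05 stood 1, 2 and 1 of the 5 members in demyelination against untreated, remyelination against untreated, and remyelination against demyelination. Of all 14057 genes 2857, 2644 and 1985 stood there in the same order.

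The share of cells with an Mbp read was higher in demyelination than in any other group. An Mbp read was found in 33.3% ± 4.42 of demyelination cells and 29.4% ± 10.6 of remyelination cells (SD, n = 4), and in 21% ± 4.76 and 13.2% ± 5.14 after thinning to 20000 counts, against 15.6% ± 2.06 in the untreated corpus callosum. Mobp stood at 0.814, 0, 0 and 10.7 CPM in demyelination and at 690, 0, 3.47 and 86.4 CPM in remyelination, where 1 cell of mouse 1 held 52.4% of the group's reads. The remyelination mice thus ran from no Mobp read to the highest Mobp level of the 40 sums. The log2 difference of Mobp was -1.36 ± 1.90 in demyelination and 4.98 ± 2.19 in remyelination against untreated corpus callosum (adjusted p = 0.225 in remyelination, edgeR's quasi-likelihood test).

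Mag was read in 5.59% of demyelination cells and 3.88% of remyelination cells against 16.8% of untreated corpus callosum cells. Its mice had 38.6, 1.95, 0 and 21.6 CPM in demyelination and 0.641, 22.6, 6.48 and 0 CPM in remyelination, against 28.2 to 85.1 CPM untreated, and the demyelination mice overlapped the untreated ones. Cnp stood at 0.916, 4.04, 31.7 and 34.6 CPM in remyelination and at 23.9 to 126 CPM in demyelination. Mog had no read in any remyelination cell and 1 read in demyelination, and was too low to be tested, as was Cldn11. By the mean of 4 mice, Mag, Cnp and Mog stood at 15.5, 62.1 and 0.0156 CPM in demyelination against 44.5, 61.2 and 0.808 CPM in untreated corpus callosum. Of these, Mag passed in demyelination when limma was run on mean log values per cell, and none passed edgeR's test.

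The other transcripts of oligodendrocytes gave few calls. Of 27 further oligodendrocyte genes, 22 were tested across the untreated regions and 24 after axotomy. None was called by edgeR in any of those 7 comparisons, and DESeq2 passed 0 to 2. An unadjusted p under 0.05 was found for 2 to 7 of them. Of all genes, 1504 to 2578 of 22907 had one among the regions and 1090 to 1610 of 19319 after axotomy. In demyelination 3 of 16 tested rose by edgeR's test and none fell, namely Trf, Sirt2 and Gsn, where 5.16% of all genes were called. In remyelination the same 3 of 16 rose, where 3.12% of all genes were called. DESeq2 called 4 in demyelination, these 3 and Plekhb1, which had 4.09 CPM in untreated corpus callosum and no read in demyelination. In remyelination DESeq2 called Trf, Gsn, Qdpr and Cryab but not Sirt2 (adjusted p = 0.0681). The median log2 difference over the 16 was 1.2 in demyelination and 1.37 in remyelination, where the median of all genes was below 0. Trf and Sirt2 were read widely in these cells: Trf, the iron carrier transferrin, was read in 76.6% to 96.9% of the cells of every group, and Sirt2, a deacetylase, in 28.2% to 61.5%.

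Trf stood at 536 ± 37.7 CPM in demyelination, 457 ± 47.6 in remyelination and 235 ± 50.3 in untreated corpus callosum (SD, n = 4), without overlap. Gsn, the actin-severing protein gelsolin, stood at 69.1 ± 17.6, 52.4 ± 37.4 and 0.316 ± 0.479 CPM in the same groups.

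Of the 7 transcription factors of the oligodendrocyte lineage, 2 or 3 were tested per comparison. At most 2 had an unadjusted p under 0.05, as did 1090 to 2857 of all genes. EdgeR called none of these factors and DESeq2 passed at most 2. They summed to 12 to 61.5 CPM in spinal cord mice, 11.1 to 26.0 in corpus callosum, 0.0501 to 34.4 in demyelination and 0 to 9.84 in remyelination. Sox10, which defines the lineage, was at 0 in cortex, cerebellum, demyelination and remyelination and was read in 1 of 170 spinal cord cells. Of 7 precursor markers, Neu4, a sialidase of oligodendrocyte precursors, fell in demyelination to 0 reads from 23 ± 10.5 CPM in untreated corpus callosum (adjusted p = 0.0478, edgeR's quasi-likelihood test), and edgeR called no other in any comparison. Astrocyte markers summed to 137 to 894 CPM in spinal cord, 255 to 342 in cortex and 109.6 to 283 in corpus callosum, and the part of these other cell types in the myelin values was not tested.

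Within cells, pooled over all groups, Mobp, Mal and Cldn11 were read more often beside Mbp than without it. Mobp was read in 34 of the 293 cells with Mbp (11.6%) and in 64 of the 1351 without (4.74%). Mal was read in 10 (3.41%) and 16 (1.18%), and Cldn11 in 7 (2.39%) and 8 (0.592%). Mog, in 7 (2.39%) and 26 (1.92%), differed less. By group the Mobp shares did not all run one way: no cell with Mbp had Mobp in cortex, cerebellum or facial nucleus, where 3, 4 and 2 cells without Mbp did, and in demyelination it was 1 of 54 against 5 of 107. The widely read Mag (15.7% and 12.7%) and Cnp (24.9% and 21.9%) also differed less. Since cells of 1 mouse share their source and their plate columns, these shares are a description.

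Very high Mbp was the property of 28 cells with at least 1000 CPM, a limit set after the values were seen. The lowest of them had 1029 CPM, and the highest cell below it 957 CPM. They held 77.2% of all Mbp counts of the kept cells and came from 18 of the 40 sums. By group there were 7 each in spinal cord and demyelination, 5 in remyelination, 4 in axotomy day 14, 2 each in hippocampus and facial nucleus, and 1 in corpus callosum. In the spinal cord, where 45 of 170 cells had an Mbp read, those 7 cells held 95.9% of the reads.

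These 28 cells had the microglia markers: their median was 11 of 12 read, against 12 of 12 in cells with no Mbp read. Mobp was read in 35.7% of the 28, in 9.06% of the 265 cells with less Mbp and in 4.74% of cells with none. For Plekhb1, a membrane protein gene of oligodendrocytes that was singled out after its values were seen, the shares were 32.1%, 3.40% and 2.44%. The list of 27 other oligodendrocyte genes that holds Plekhb1 did not differ so: the median number read was 2.5, 2 and 2. At least 1 of them was read in 23 of 28, 261 of 265 and 1262 of 1351 cells. The shares with Cnp (28.6%, 24.5% and 21.9%) and Mag (17.9%, 15.5% and 12.7%) differed less between the 3 classes.

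**Figure D4:**
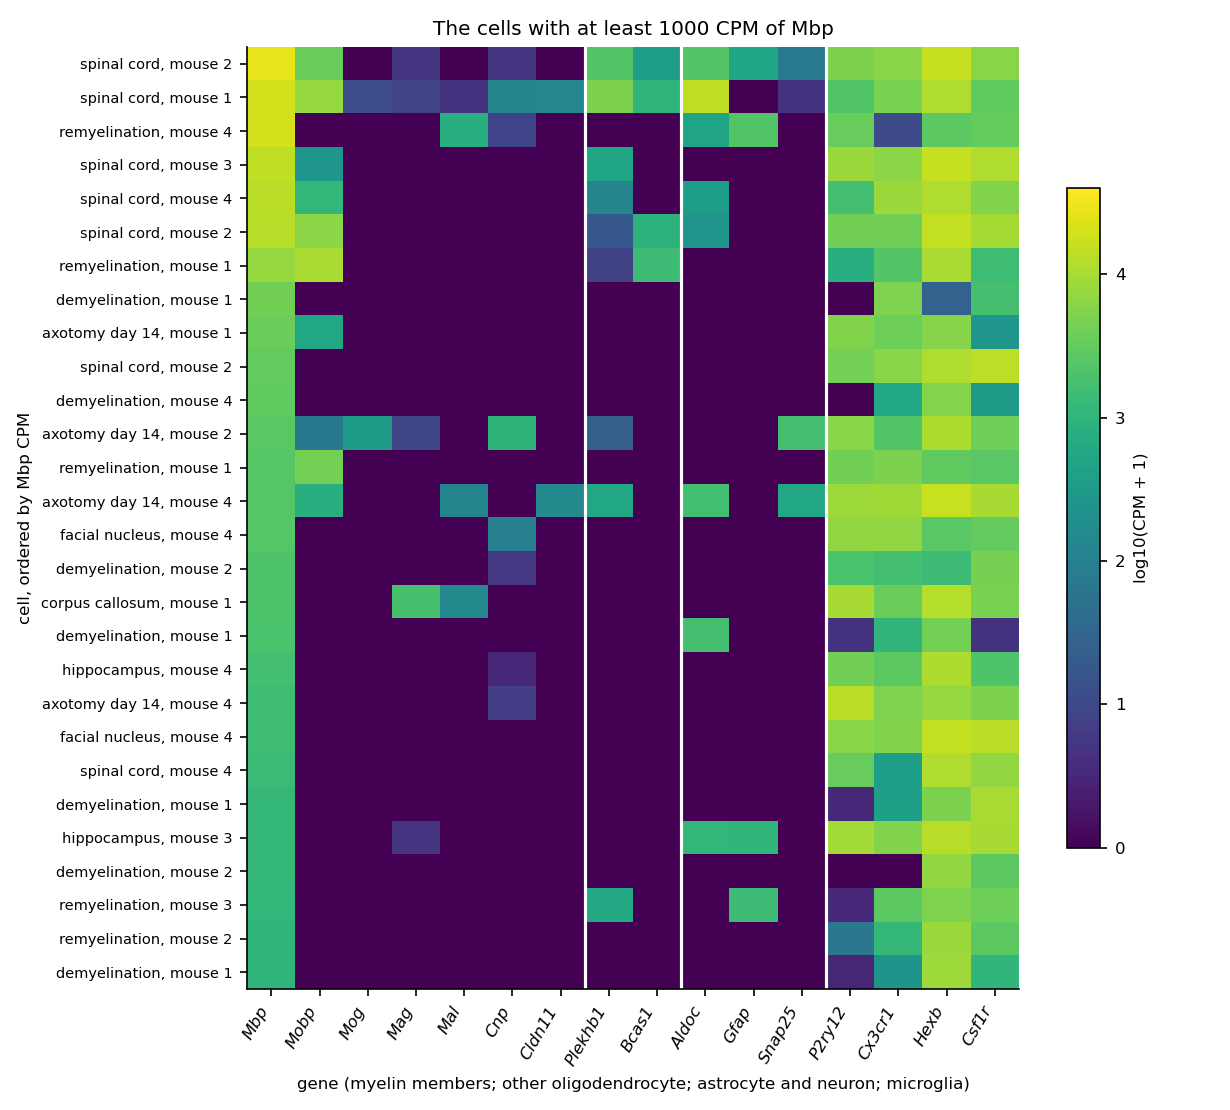
The 28 kept cells with at least 1000 CPM of Mbp, 1 per line from the highest to the lowest, with log10(CPM + 1) of 16 genes as colour; white lines separate the 7 myelin genes, 2 other oligodendrocyte genes, 3 astrocyte and neuron genes and 4 microglia genes. Microglia genes are filled in nearly every line, and none of the 7 demyelination cells has a Mobp read.

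The 28 cells were not alike. The spinal cord cell of mouse 2 with the highest Mbp, 28266 CPM, had 3469.5 CPM of Mobp, 2377 CPM of Plekhb1 and 12 of 12 microglia markers. The richest spinal cord cell of mouse 1, at 19558 CPM of Mbp, was the only cell with reads of all 7 members, and it also had 9 of 10 astrocyte markers, 14547 CPM of the astrocyte enzyme gene Aldoc and 3 of the 7 lineage factors, beside 11 of 12 microglia markers. The richest remyelination cell, at 19296 CPM of Mbp, had no Mobp read but 2204 CPM of Gfap, the astrocyte filament gene. In demyelination the richest cell had 4247 CPM of Mbp with no read of any of the other 6 members, and 6 of the 7 rich demyelination cells were of that kind. Leaving out the single cell with all 7 members moved the spinal cord difference from cortex to 5.0 ± 1.09 (adjusted p = 0.0984, edgeR's quasi-likelihood test).

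Low counts of Mbp were also laid out unevenly over the plates. Each mouse filled its own columns of a plate, while rows ran across the mice and groups of that plate. A well was taken as rich at 500 or more Mbp reads and a cell as low at 1 to 5 reads, both limits set after the values were seen, and rich wells were left out of the counts. On the plate of corpus callosum and spinal cord, 30 of 140 cells (21.4%) in rows with a rich well had 1 to 5 Mbp reads, against 21 of 196 (10.7%) in other rows. On the cuprizone plate the shares were 19% and 7.20%, and on the axotomy plate 9.52% and 2.70%.

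The plates of cortex with hippocampus (3.23% and 3.75%) and of cerebellum with facial nucleus (4.35% and 5.33%) showed no such difference between rows. Cells with more than 5 Mbp reads were about as frequent in both kinds of row on the plate of corpus callosum and spinal cord (9.29% and 10.2%) and on the cuprizone plate (16.5% and 16.0%). On the plate of cortex with hippocampus they were more frequent in rows with a rich well (12.9% and 7.49%). For Mobp, with rows sorted by wells rich in Mobp, cells with 1 to 5 reads made up 9.52% and 3.61% on the plate of corpus callosum and spinal cord, 9.52% and 2.52% on the axotomy plate, and 4.17% and 6.84% on the cuprizone plate, where the difference ran the other way.

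Columns belong to 1 mouse each, so that a split by column also splits mice. In columns with a rich well, cells with 1 to 5 Mbp reads made up 19% on the plate of cortex with hippocampus against 2.60% in its other columns. The shares were 18.9% and 13.7% on the plate of corpus callosum and spinal cord, 11.5% and 2.88% on the axotomy plate, 15.6% and 12.8% on the cuprizone plate, and 0% and 5.49% on the plate of cerebellum with facial nucleus. For Mobp the column shares were 25% and 2.10% on the cuprizone plate and 17.4% and 1.71% over all plates, so the split by column ran the other way from the split by row on the cuprizone plate. The part of plate position in these values was not tested.

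**Figure D5:**
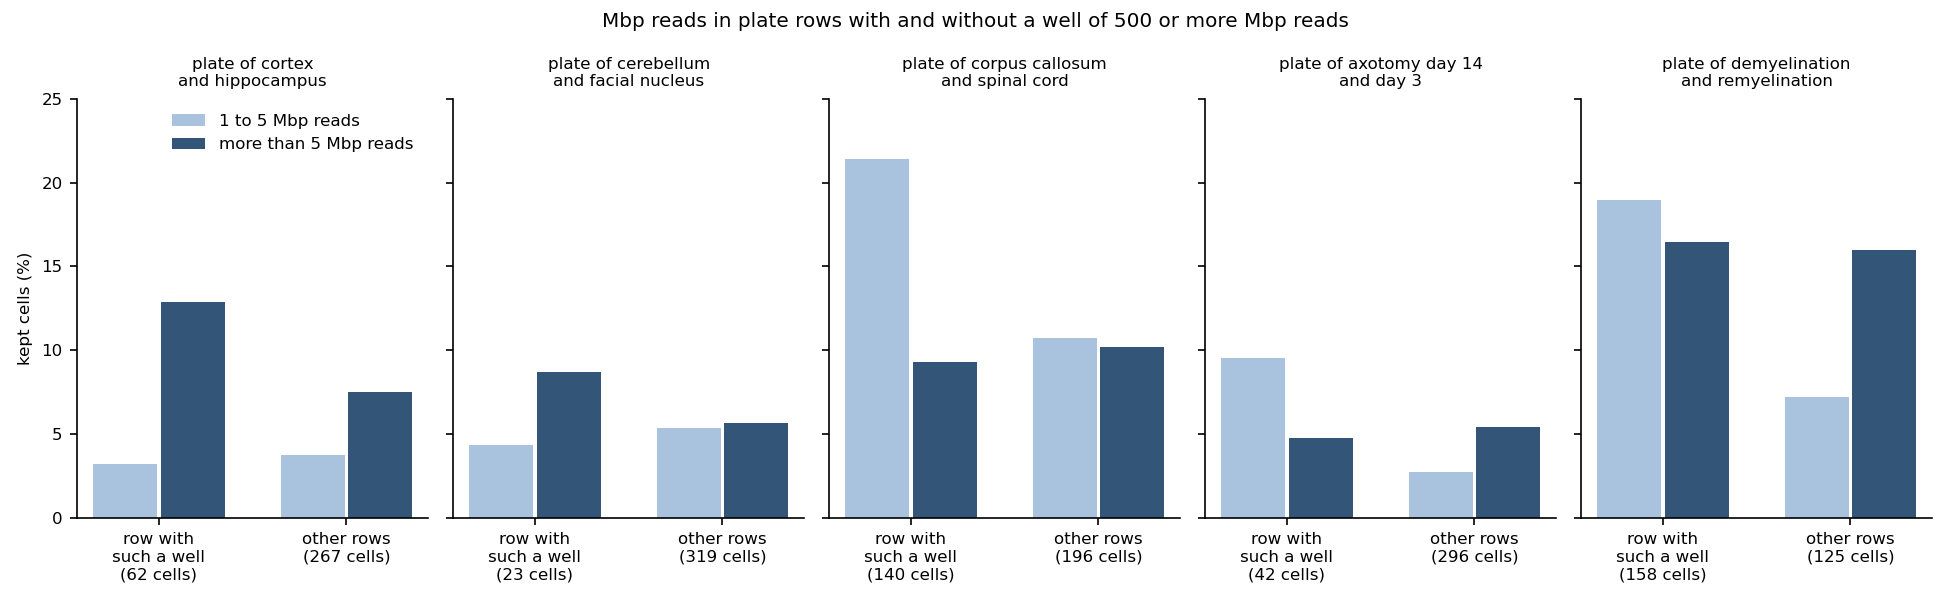
Share of kept cells in percent (vertical axis) with 1 to 5 Mbp reads (light bars) or more than 5 (dark bars), in plate rows that hold a well with 500 or more Mbp reads and in the other rows (horizontal axis), for each of the 5 plates; those rich wells are not counted. Light bars are 21.4% and 10.7% on the plate of corpus callosum and spinal cord and 3.23% and 3.75% on the plate of cortex and hippocampus.

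Over the 40 sums, the genes outside the 7 whose log2(CPM + 1) most resembled that of Mbp were Capg (Pearson r = 0.586), Nav1 (0.568), Prkag1 (0.566), Ccl6 (0.551), Blvra (0.540), Ramp1 (0.521), Aprt (0.521), Rftn1 (0.519), Cd300lb (0.508) and Gfap (0.505), out of 9459 genes with a mean of at least 10 CPM. Mobp came 18th with 0.477, and 0.273 without the spinal cord sums. Mag had -0.04 and Cnp -0.22. These values describe 40 sums that share plates and, in part, mice. The 7 members could not be among the 10, and genes with a mean under 10 CPM were left out. No gene of the oligodendrocyte lists was among the 10, while Gfap is on the astrocyte list.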

How the data were processed

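The deposited values are whole-number counts of reads, 1 for each gene in each well. Per the submitters' processing notes, STAR 2.5.2b, featureCounts 1.5.1 and the GRCm38 build were used. Neither the annotation release nor the strand setting is given in the sources used here. Gene symbols came from GENCODE vM21 by Ensembl identifier, and 48349 of the 48709 gene entries matched. The 92 spike-in entries stayed out of library sizes and tests.

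Wells were kept with at least 20000 gene counts, at least 500 genes, under 25% mitochondrial counts and under 50% spike-in counts, which left 1644 of 1900. Of the 256 left out, 248 had too high a spike-in share, 152 too few genes, 128 too few counts and 82 too high a mitochondrial share, with overlap. Counts were added up over the kept cells of each mouse in each group (4 mice a group), since cells are not replicates. The sums were scaled with TMM, filtered for low counts (minimum 10 per sum, 15 in all) and tested in R 4.3.3 with edgeR 4.0.16 (robust quasi-likelihood F test, Benjamini-Hochberg over all genes tested, threshold 0.05), in 3 fits: the 6 untreated regions, the facial nucleus groups and the corpus callosum groups. The standard error of a log2 difference was derived from its F statistic. CPM values are not TMM-scaled. The script was tested on simulated data. DESeq2 1.42.0, limma 3.58.1, other scalings, filters and sample sets, and fits without each mouse were alternatives. Shares of cells with a read were taken from all reads and after thinning each cell to 20000 gene counts. Reads without molecular identifiers are not independent molecules, so limits from counts cover counting error only.

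Same-numbered mice of different groups were correlated by 0.05 at most in their deviations from the group means. The numbers were therefore not used as pairs in the main fits. Among the untreated regions, same-numbered pairs were slightly more alike (mean 0.018, -0.004 to 0.046) than other pairs (mean -0.006, -0.037 to 0.022). With the replicate number as a block, calls over all genes rose from 23 to 39 across the regions. They rose from 16 to 31 between spinal cord and cortex. Against untreated corpus callosum they fell from 725 to 447 in demyelination and from 438 to 320 in remyelination. Where the labels do not tie regions to animals, p-values measure the spread between these samples. The members and lists were chosen with earlier results of these data known. All 7 members are named in every comparison, and of the other lists at most 5 called genes per comparison. Also named are the 10 genes whose log2(CPM + 1) was most correlated with that of Mbp, among genes with a mean of at least 10 CPM. Genes and limits chosen after their values were seen are so described. Values of some other genes are not reported here.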

Additional observations from a re-analysis of the deposited data

Results flagged for a closer look

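In 25 of the 67 sets of 4 mice that could be checked, 1 mouse stood apart from the other 3 by Dixon's criterion. For normally distributed values chance would flag about 1 in 20. A set with reads in 1 mouse only is always flagged, so that rate is no reference for these sparse sums. Nearly all are sums in which 1 or a few cells carried the reads. For Mbp the mouse was cerebellum mouse 4 (46.1 CPM against 9.47 in the next). For Mobp they were hippocampus mouse 1 (9.97 CPM), cerebellum mouse 2 (8.25), facial nucleus mouse 3 (0.681), demyelination mouse 4 (10.7) and remyelination mouse 1 (690 CPM against 86.4 in the next). For Mog they were hippocampus mouse 2 (13 CPM), facial nucleus mouse 2 (18.9), spinal cord mouse 1 (15.4) and demyelination mouse 1 (0.0626). For Mal they were hippocampus mouse 2 (9.15 CPM), spinal cord mouse 1 (0.122), axotomy day 3 mouse 1 (5.74), demyelination mouse 1 (74.4) and remyelination mouse 4 (20.9). For Cldn11 they were cerebellum mouse 3 (0.445 CPM), facial nucleus mouse 2 (20.3), corpus callosum mouse 3 (5.98), spinal cord mouse 1 (11.3), axotomy day 3 mouse 2 (0.0920), axotomy day 14 mouse 4 (5.40), demyelination mouse 1 (24.9) and remyelination mouse 3 (0.0654). Corpus callosum mouse 1 stood apart for both Mag (85.1 CPM against 32.8 in the next) and Cnp (155 CPM against 42.6).

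The 256 wells left out by the cell filter also held myelin reads, and pooled over groups Mbp and Mobp were at a higher level than in the kept cells. Mbp stood at 965 CPM over those wells and at 134 CPM over the kept cells, and Mobp at 356 and 35.1 CPM. By group, Mbp was lower than the kept mean in cortex (0 against 15.6 CPM), spinal cord (6.52 against 703), axotomy day 3 (0.638 against 4.25) and cerebellum (15.2 against 16.0). It was higher in the other groups. Reads of Mbp were found in 33 of these wells and of Mobp in 16. A single well held 84.9% of the Mbp reads of the hippocampus wells left out, 99.7% in facial nucleus and in demyelination, 99.2% in corpus callosum, 100% in axotomy day 14 and 58.0% in remyelination. Mog and Cldn11 had no read in them.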

How the results depend on the processing

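The alternatives that leave out the richest Mbp cell of each mouse, or the cell with all 7 members, were chosen after seeing the data. Across the 6 untreated regions the number of members called was 1, and 0 with no filter on low counts, with no cell filter, with limma on mean log values or on thinned shares, and without the richest Mbp cell of each mouse; DESeq2 called 2 (Mbp and Mobp), and leaving out a replicate number gave 0 to 1. Between spinal cord and cortex it was 1, and 0 with no filter on low counts, no cell filter, only the 2 groups, all 10 groups, either limma setting, without the richest cells and without the cell with all 7 members; DESeq2 called 2 (Mbp and Cldn11), and leaving out 1 mouse gave 0 to 1. Between remyelination and corpus callosum it was 1, and 0 with upper-quartile scaling, only the 2 groups, all 10 groups and without the richest cells; it was 2 (Mbp and Mobp) with no filter on low counts, and 0 to 1 without 1 mouse. Blocking on the replicate number gave 0 there, which is the only count of members called that the block changed. In that fit the mean correlation of deviations was 0.006 for same-numbered mice and -0.002 for others.

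Where no member was called, DESeq2 called 1 between spinal cord and corpus callosum (Mbp), corpus callosum and cortex (Cldn11), and on axotomy day 3 and day 14 against the facial nucleus (Mobp). No filter on low counts gave 1 between axotomy day 14 and day 3 (Mbp) and 1 between remyelination and demyelination (Mobp), and limma on mean log values gave 1 in demyelination (Mag). The cause of these changes was not tested. Without the richest Mbp cell of each mouse, the log2 difference turned to -0.18 for Mbp on axotomy day 14, to -0.73 for Mobp between day 14 and day 3, and to -0.31 for Mbp between remyelination and demyelination. With no cell filter, that of Mobp in demyelination turned to 0.0877. The other log2 differences of Mbp and Mobp kept their sign.

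Over all genes, DESeq2 called 252 across the regions (edgeR 23), 410 between spinal cord and corpus callosum (0), 1012 between spinal cord and cortex (16), 987 between corpus callosum and cortex (3), 533 on day 3 (28), 447 on day 14 (0), 350 between the days (5), 3367 in demyelination (725), 2695 in remyelination (438) and 664 between these (6). The edgeR and limma alternatives with all mice ranged over 17 to 122, 0 to 3, 3 to 61, 2 to 29, 9 to 92, 0 to 16, 0 to 83, 447 to 5216, 320 to 5145 and 1 to 120 genes in the same order. Of the 70 shares of cells with a read, 33 moved by more than the SD between mice with no thinning, 3 when 2 reads were required and 1 with a depth filter alone. Mal, Cldn11 and Mog rest on 15 to 33 cells, which limits what their values can show.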
